A study of Mus musculus with 17 samples.

Results

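The genes described here carry the insulin and leptin signal inside the cell: the receptors Insr, Igf1r and Lepr, the adaptors Irs1 and Irs2, the kinase subunit Pik3r1, the transcription factors Stat3 and Foxo1, and the brakes Socs3 and Ptpn1. They were chosen by name, as every probe set whose platform annotation gives 1 of these 10 symbols and no other, which gave 24 probe sets of 20380 with a single symbol (10 of 12393 genes). Each of 17 male C57Bl/6 mice, all 9 weeks old, gave the RNA of its hypothalamus to 1 Affymetrix expression array. In the STZ group 6 wild-type mice had received 1 intraperitoneal injection of streptozotocin, which kills the beta cells that make insulin, at 200 µg/g body weight. The 5 ob/ob mice carried the ob/ob genotype, which removes functional leptin, and the labels state no injection specific to them. The 6 control mice were wild type and had received vehicle. Blood glucose, insulin and body weight of these mice were not analysed here, and the labels state no batch, date or litter.

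Insulin and IGF1 bind receptor tyrosine kinases that phosphorylate the IRS adaptors, which recruit PI3-kinase and activate AKT. AKT phosphorylates FOXO1 and keeps it out of the nucleus, so insulin lowers FOXO1 activity at the protein level. Leptin binds LEPR, whose associated JAK2 kinase phosphorylates STAT3, and STAT3 induces Socs3, which together with the phosphatase encoded by Ptpn1 damps both receptors. In the mouse hypothalamus both hormones act on Pomc and Agrp neurons of the arcuate nucleus to restrain feeding. An expression array reads RNA, not the phosphorylation that carries most of this signal.

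Promoter letters were examined for the binding sites through which these pathways act on their own components. RefSeq (GRCm38.p6) held promoter windows for 9 of the 10 genes, in 11 windows of 300 bases (250 before the start of transcription and 50 after). On both strands these were searched for the STAT site TTCNNNGAA, for TGTTTTG, a spelling of the insulin response element bound by FOXO factors in liver genes, and for the FOXO site GTAAACA. The 4 windows that held a match are shown as stretches around it, 5′ to 3′ on the strand of the gene, with the match in capitals. The Irs1 stretch is chr1:82291435-82291580 (minus strand), the Irs2 stretch chr8:11008930-11008996 (minus), the Lepr stretch chr4:101717762-101717828 (plus) and the Socs3 stretch chr11:117969482-117969550 (minus).
Irs1: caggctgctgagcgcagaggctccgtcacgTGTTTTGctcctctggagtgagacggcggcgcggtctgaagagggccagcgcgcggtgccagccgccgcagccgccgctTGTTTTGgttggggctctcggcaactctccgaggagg
Irs2: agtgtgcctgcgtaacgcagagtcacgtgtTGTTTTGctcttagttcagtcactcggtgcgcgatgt
Lepr: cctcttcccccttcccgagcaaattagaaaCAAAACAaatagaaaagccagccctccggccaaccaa
Socs3: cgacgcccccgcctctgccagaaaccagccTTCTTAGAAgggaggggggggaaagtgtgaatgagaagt

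The Socs3 match to the STAT site lay at position -154 from the start of transcription, and 1 of the 11 windows held this site, against 8.30% of 32851 windows in the table. TGTTTTG was in 3 of the 11 windows, against 6.28% of all windows. It stood at positions -111 and -32 of Irs1 and -37 of Irs2, and in Lepr it was on the opposite strand at -114, where it reads CAAAACA. The FOXO site was in 0 of the 11 windows and in 3.65% of all. A match describes letters only, and the signals of these 4 genes are given with their roles below.

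Values are deposited MAS5 signals on a linear scale, which compare arrays for 1 probe set and not different probe sets with each other. Of the 24 probe sets 13, from 7 genes, were bright enough to be tested, meaning that their geometric mean over all arrays was at least 435 (the 40th percentile of all probe sets). All probe sets of Insr, Lepr and Socs3 were dimmer and are described by their values. Median signals of the arrays lay between 637.6 and 707 and correlations between arrays between 0.954 and 0.972. Of 14 hypothalamus markers 11 were measured and 9 were above the filter, so the defining markers of the labelled tissue were present. Choroid plexus markers set the ob/ob arrays apart. The list (4 of 6 measured, 0 above the filter, 0 values at 0) summed to 729.8 to 953 in STZ, 1024.2 to 7360.1 in ob/ob and 721 to 937 in control arrays. On the log2 scale it was higher in ob/ob by 1.13 than in control and by 0.97 than in STZ (exact permutation test, adjusted p = 0.035 each, over 48 tests). Its marker Ttr, on the probe set that is not of the cross-hybridizing kind, was at 2121 in ob/ob replicate 3 and 6654 in replicate 4, against at most 304 in every other array, and its 2 other probe sets were also highest in these 2 arrays. Of 8 cortex and hippocampus markers 5 were measured and only 2 were above the filter. These markers were also higher in ob/ob than in control, by 0.36 (exact permutation test, adjusted p = 0.035). Against STZ they stood at 0.25, which did not pass (exact permutation test, adjusted p = 0.173). Hypothalamus markers were lower in ob/ob, at -0.27 against control and -0.21 against STZ (exact permutation test, adjusted p = 0.042 each). The hypothalamus list includes the feeding peptides Pomc and Npy, whose own values are given below, so its level is not independent of them. In a whole hypothalamus a lower signal can come, among other sources, from fewer cells of a type or from less RNA per cell. Such sources cannot be told apart here.

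None of the 7 tested genes passed an adjusted p of 0.05 in any comparison (limma, Benjamini-Hochberg over 13576 probe sets). Insr, Lepr and Socs3 were below the filter and not part of this test. In STZ against control 0 of the 13 tested probe sets passed, where 0.0516% of all probe sets did. In ob/ob against control 0 passed, against 0.125% of all, and in ob/ob against STZ 0 passed, against 0.0368% of all. Foxo1 came nearest, with a signal in ob/ob hypothalamus about 1.2 times that of control on each of its 3 tested probe sets. Irs2 had the lowest ob/ob level relative to both other groups, at 0.74 of control and 0.70 of STZ, and its ob/ob average of 358 was itself below the filter. At an unadjusted p under 0.05, STZ against control held 0 of the 13, where 8.24% of all probe sets did. The ob/ob against control comparison held 4 of 13 (11.9% of all), all with a positive difference (5.75% of all), which were the 3 of Foxo1 and 1 of Ptpn1. That of ob/ob against STZ held 2 of 13 (3.93% of all), Irs2 and 1 of Stat3, both with a negative difference (2.0% of all). Probe sets of 1 gene are not independent of each other, and these are counts of 2 genes in each case.

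The median log2 fold change of the 13 probe sets was 0.074 in STZ against control, where that of all tested probe sets was 0.0006. In ob/ob against control it was 0.034, against -0.0005 for all, and in ob/ob against STZ 0.060, against -0.0002 for all. The sign depends on how probe sets are counted. On the brightest probe set of each of the 7 genes, the median was 0.047 in STZ against control. It was -0.048 in ob/ob against control and -0.054 in ob/ob against STZ. The value was positive for 10 of the 13 in STZ against control (50.3% of all), for 7 in ob/ob against control (49.8% of all) and for 9 in ob/ob against STZ (49.9% of all). The STZ and ob/ob differences are taken from the same 6 control arrays and so move together when a control moves. Differences are given below as log2 fold changes ± standard error (SE), from 6 STZ, 5 ob/ob and 6 control arrays.

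**Figure D1:**
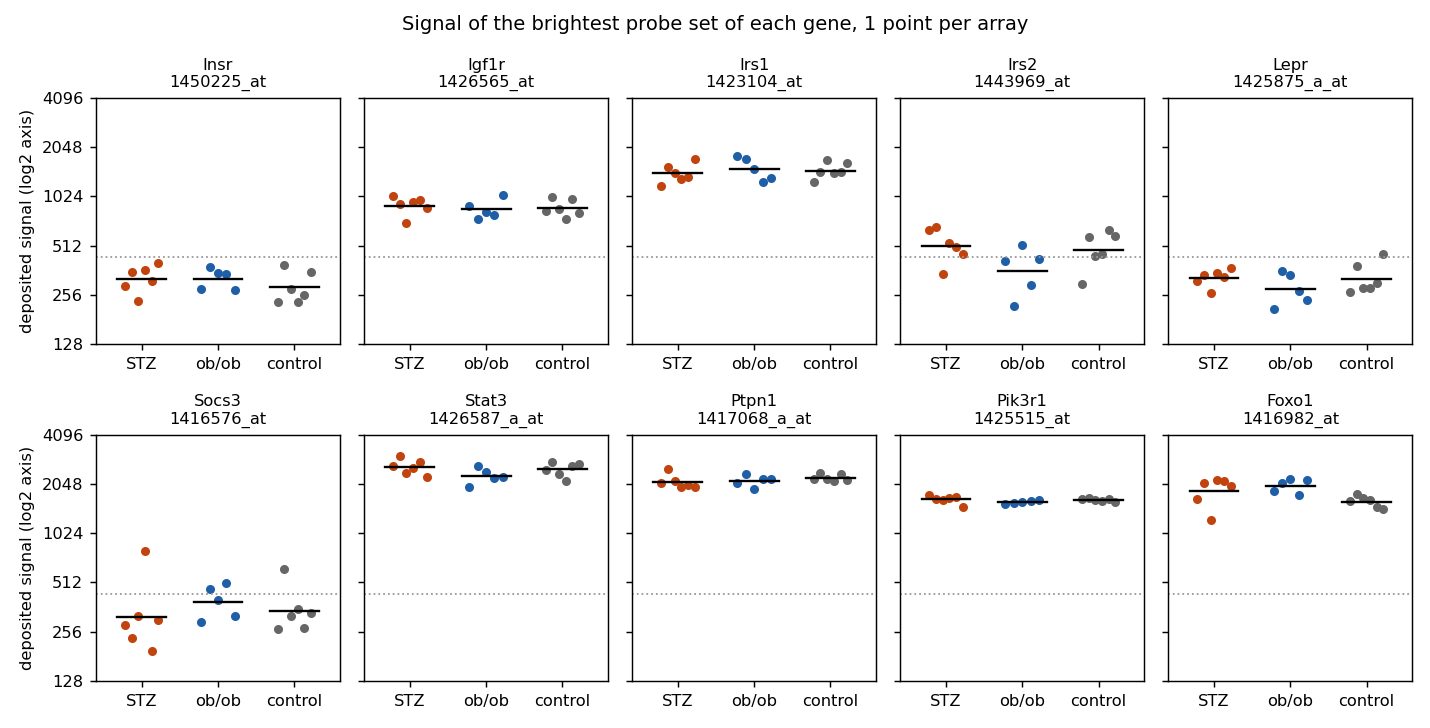
Deposited signal (log2 axis) of the brightest probe set of each of the 10 genes, with 1 point per array and a bar at the geometric mean of each group. The dotted line is the filter at a signal of 435: Insr, Lepr and Socs3 have group means below it, and ob/ob arrays of Irs2 lie on both sides of it.

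Insr, the insulin receptor, was dim on both of its probe sets. On 1450225_at the STZ arrays ran from 234.2 through a median of 332 to 403.8. The ob/ob arrays had 277.6, 377.9, 349.5, 341.8 and 275.8, and the control arrays ran from 230.6 through 267 to 391.6. The 3 groups covered the same range, although 5 of 6 STZ arrays and 5 of 5 ob/ob arrays were above the control median. The differences were 0.17 ± 0.17 in STZ and 0.18 ± 0.18 in ob/ob against control (limma without the filter, adjusted p = 0.898 and 0.831). For ob/ob the interval of the fold was 0.88 to 1.46 (95%). The other probe set, 1421380_at, averaged 94.5 in STZ, 81.8 in ob/ob and 87.5 in control arrays.

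Igf1r, the receptor of insulin-like growth factor 1, was tested on 1426565_at. Its signal ran from 701.4 through a median of 936 to 1026 in STZ arrays. It was 890.1, 747.5, 823.0, 790.4 and 1042.8 in ob/ob arrays, and from 747.8 through 848 to 1023 in control arrays. All 3 groups overlapped over nearly their whole range. The difference from control was 0.049 ± 0.10 in STZ and -0.029 ± 0.11 in ob/ob (limma, adjusted p = 0.929 and 0.945), with 95% intervals of the fold of 0.89 to 1.20 and 0.84 to 1.15. The dim probe set 1452108_at averaged 349.8 in STZ, 287 in ob/ob and 328 in control arrays, and each of the 5 ob/ob arrays was below the STZ median (-0.28 ± 0.17 in ob/ob against STZ; limma without the filter, adjusted p = 0.9996).

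Lepr, the leptin receptor, was dim on its 3 probe sets, and the files do not say which splice forms each one reads. On the brightest, 1425875_a_at, STZ arrays ran from 262.5 through a median of 333 to 376. The ob/ob arrays had 210.5, 357.0, 339.1, 271.7 and 238.5, and control arrays ran from 266.8 through 293 to 453.2. The lowest 2 signals of all 17 arrays were from ob/ob mice, and their other 3 lay inside the range of STZ and control. The difference was 0.012 ± 0.17 in STZ against control, -0.22 ± 0.17 in ob/ob against control and -0.23 ± 0.17 in ob/ob against STZ (limma without the filter, adjusted p from 0.777 to 0.9996). On 1425873_a_at the group averages were 232.6 in STZ, 220.5 in ob/ob and 223.6 in control. On 1425644_at they were 8.80 in STZ, 10.2 in ob/ob and 12.3 in control, near the lowest signals on the array. At this brightness a change in leptin receptor RNA of the size seen here was not detectable.

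Irs1 and Irs2 are the adaptors that dock to the insulin and IGF1 receptors, and neither passed in any comparison. Irs1 (1423104_at) ran from 1177.9 through a median of 1386 to 1739.8 in STZ arrays. It was 1797.8, 1738.1, 1497.4, 1258.9 and 1328.7 in ob/ob arrays, and from 1247.9 through 1445 to 1700.4 in control arrays. The groups overlapped, with a difference from control of -0.059 ± 0.10 in STZ and 0.034 ± 0.11 in ob/ob (limma, adjusted p = 0.911 and 0.936). The fold in ob/ob had a 95% interval of 0.88 to 1.20.

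Irs2 (1443969_at), which like Irs1 holds TGTTTTG in the promoter stretch shown above, lay just above the filter, which it passed through its STZ and control averages. Its signal ran from 346.2 through a median of 516.7 to 667.5 in STZ arrays. It was 413.3, 219.4, 517.3, 295.5 and 423.2 in ob/ob arrays, and from 299.1 through 515 to 641.3 in control arrays. The SD of log2 signal was 0.34 in STZ, 0.49 in ob/ob and 0.40 in control, with 4 of 5 ob/ob arrays below the control median and 4 of 5 below the STZ median, and the groups overlapped. The difference was -0.44 ± 0.22 in ob/ob against control (limma, adjusted p = 0.462), with a fold of 0.74 (95% interval 0.53 to 1.02). Against STZ it was -0.51 ± 0.22 (limma, adjusted p = 0.9996), with a fold of 0.70 (0.51 to 0.97). STZ stood at 0.074 ± 0.21 against control (limma, adjusted p = 0.95). The group averages were 510.9 in STZ, 358 in ob/ob and 485 in control, with STZ and control closer than their spread.

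Pik3r1, the regulatory p85 alpha subunit of PI3-kinase, was tested on 3 probe sets that did not give the same picture. On the brightest, 1425515_at, the arrays were the most uniform of all the genes. STZ arrays ran from 1475.3 through a median of 1674 to 1758.8, ob/ob arrays were 1544.6, 1564.2, 1598.0, 1605.3 and 1642.6, and control arrays ran from 1597.1 through 1652 to 1684. All 5 ob/ob arrays were below the control median, and the groups overlapped. The difference was 0.0069 ± 0.048 in STZ and -0.048 ± 0.051 in ob/ob against control (limma, adjusted p = 0.985 and 0.764), and the 95% interval of the ob/ob fold was 0.90 to 1.04. On 1425514_at the ob/ob arrays were 1219.0, 1048.1, 1304.5, 1205.7 and 1219.1, all above the control median of 1013, although control arrays reached 1389.3. The difference there was 0.23 ± 0.13 in ob/ob and 0.14 ± 0.12 in STZ (limma, adjusted p = 0.487 and 0.804). On 1451737_at it was 0.32 ± 0.16 in ob/ob and 0.26 ± 0.15 in STZ (limma, adjusted p = 0.438 and 0.682), with ob/ob arrays between 470.1 and 778.6 and control arrays between 407.3 and 726.8.

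**Figure D2:**
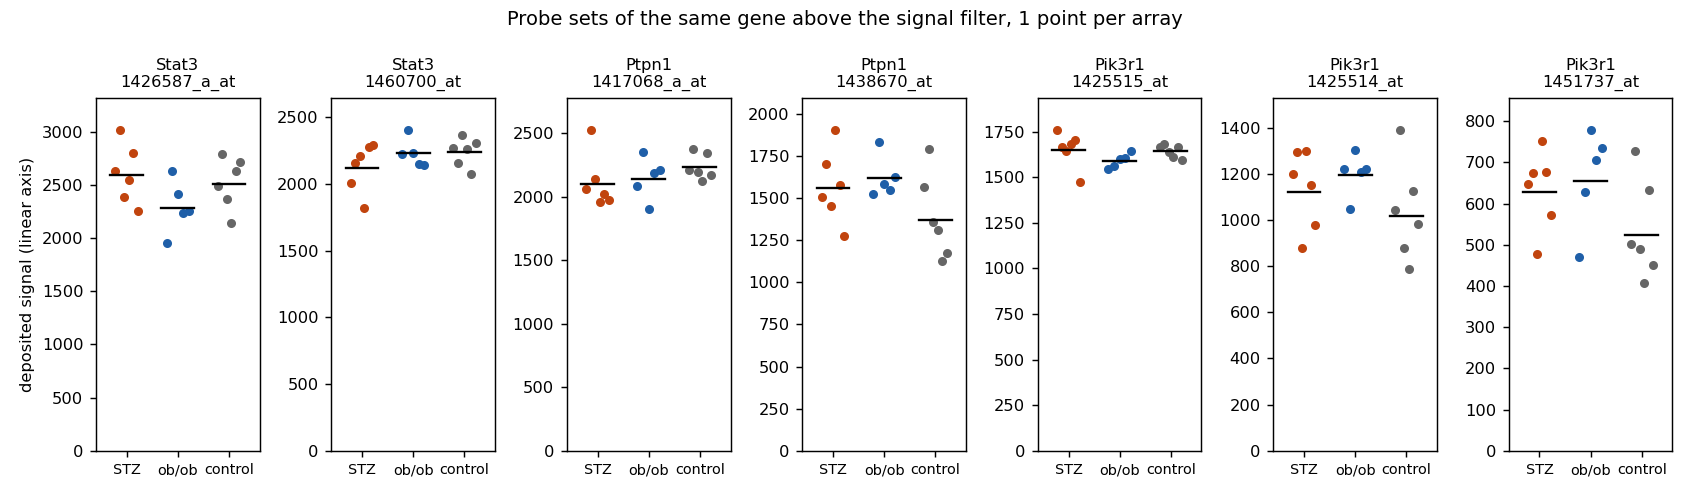
Deposited signal (linear axis) of the tested probe sets of Stat3, Ptpn1 and Pik3r1, with 1 point per array and a bar at the geometric mean of each group. The probe sets of a gene do not order the groups alike: ob/ob averages 1590.6 against 1644 in control on Pik3r1 1425515_at, and 1196 against 1017 on 1425514_at.

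Foxo1, the transcription factor that insulin holds out of the nucleus through AKT, had its highest group average in ob/ob, then STZ, then control, on each of its 3 tested probe sets. On 1416982_at the averages were 1846 in STZ, 2000.1 in ob/ob and 1597 in control (geometric means). STZ arrays ran from 1229.0 through a median of 2044 to 2159.4, ob/ob arrays were 1854.2, 2060.4, 2207.2, 1755.7 and 2162.0, and control arrays ran from 1428.8 through 1629 to 1770.4. Of the ob/ob arrays 4 of 5 lay above every control, while the STZ arrays held the lowest signal of all 17. The difference was 0.32 ± 0.12 in ob/ob (limma, adjusted p = 0.271; fold 1.25, 95% interval 1.06 to 1.49) and 0.21 ± 0.11 in STZ (limma, adjusted p = 0.652) against control.

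On Foxo1 1416981_at the ob/ob arrays were 1690.8, 1556.1, 1506.0, 1593.8 and 1531.6. STZ arrays ran from 1248.5 through a median of 1389 to 1566.5 and control arrays from 1001.1 through 1288 to 1469.9. All ob/ob arrays were above all control arrays, which held for 1 of the 13 probe sets and for 0.84% of all probe sets tested. The difference was 0.29 ± 0.088 in ob/ob against control (limma, adjusted p = 0.174; fold 1.22, 95% interval 1.08 to 1.39) and 0.11 ± 0.084 in STZ (limma, adjusted p = 0.768). On 1416983_s_at the ob/ob arrays were 1286.9, 1254.1, 1447.2, 1504.0 and 1221.0, against 929.9 through a median of 1062 to 1252.1 in control. STZ arrays ran from 1057.3 through 1193 to 1365.3, and 4 of 5 ob/ob arrays were above every control. The difference was 0.32 ± 0.088 in ob/ob (limma, adjusted p = 0.146; fold 1.25, 95% interval 1.097 to 1.415) and 0.17 ± 0.084 in STZ (limma, adjusted p = 0.613). In ob/ob against STZ the 3 probe sets stood at 0.12 ± 0.12, 0.18 ± 0.088 and 0.14 ± 0.088 (limma, adjusted p = 0.9996 each), so neighbouring groups in this order did not differ beyond their spread. The fourth probe set, 1456529_at, averaged 22.9 in STZ, 24.2 in ob/ob and 22.2 in control. Although the tested probe sets order the groups alike, they did not follow each other closely from array to array within groups. There the Pearson r was 0.44 for 1416982_at with 1416981_at, 0.16 for 1416982_at with 1416983_s_at and -0.19 for 1416981_at with 1416983_s_at.

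Markers of striatum, cortex and thalamus, regions that border a hypothalamic dissection, were set beside Foxo1. The list (15 of 23 measured, 11 above the filter, 0 values at 0) summed to 19785 to 24509 in STZ, 23632 to 28062 in ob/ob and 17239.7 to 24944 in control arrays. Its level differed between ob/ob and control by 0.26 on the log2 scale, which did not pass (exact permutation test, adjusted p = 0.176). With the mean of the 11 bright markers as a covariate, the ob/ob difference of 1416981_at was 0.35 ± 0.12 (limma, adjusted p = 0.564). That of 1416982_at was 0.23 ± 0.17 (limma, adjusted p = 0.798), and that of 1416983_s_at was 0.12 ± 0.11 (limma, adjusted p = 0.842). Over the 17 arrays the mean of these 11 markers had a Pearson r of 0.80 with 1416983_s_at (0.62 within groups). It was 0.51 with 1416982_at (0.20 within groups) and 0.35 with 1416981_at (-0.18 within groups). Without the 2 ob/ob arrays of highest Ttr the 3 differences were 0.34 on 1416982_at, 0.31 on 1416981_at and 0.22 on 1416983_s_at (limma, adjusted p = 0.384, 0.317 and 0.427).

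**Figure D3:**
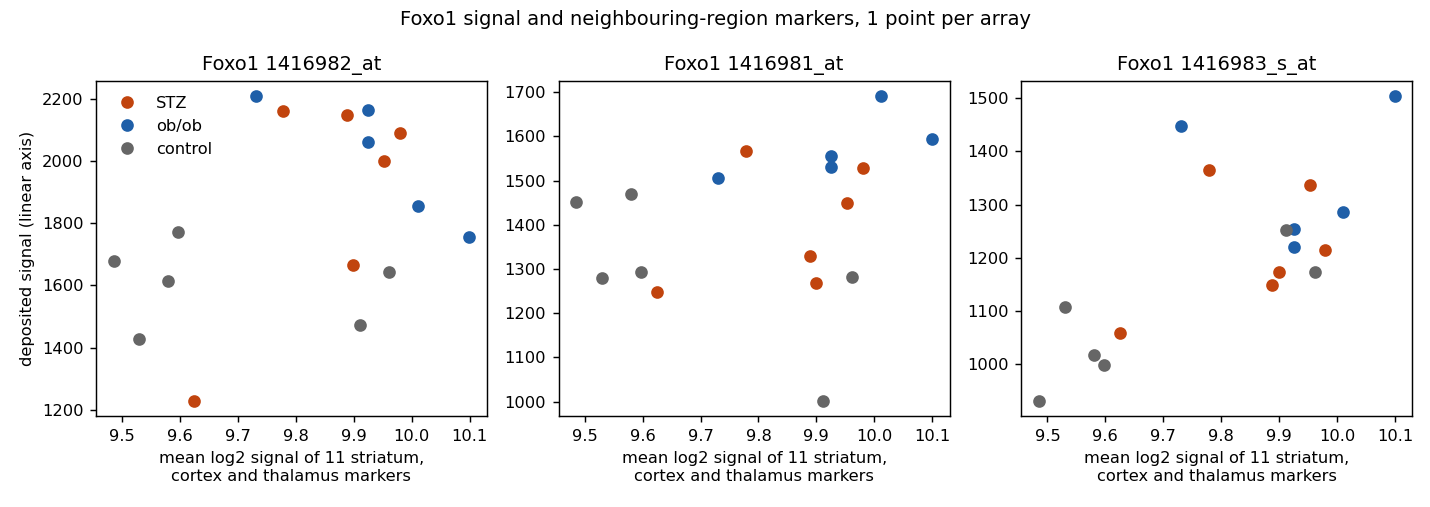
Deposited signal of the 3 tested Foxo1 probe sets (linear axis that does not start at 0) against the mean log2 signal of striatum, cortex and thalamus markers, with 1 point per array. That mean is over the 15 measured markers, although the axis label gives 11, the number above the filter. The covariate fits used the mean of those 11 only. The marker level spans 9.62 to 9.98 in STZ, 9.73 to 10.10 in ob/ob and 9.49 to 9.96 in control, and the arrays of lowest marker level are also those of lowest signal on 1416983_s_at.

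The genes whose signal followed Foxo1 1416982_at most closely over the 17 arrays were Zfp574 (Pearson r = 0.874), Clip2 (r = 0.868) and Ube3b (r = 0.858), a description in which all points share the same arrays and scaling. Clip2 encodes a linker of microtubules and Ube3b a ubiquitin ligase. Like Foxo1, none of the 3 passed in any comparison: in ob/ob against control they stood at 0.23, 0.089 and 0.17 (limma, adjusted p = 0.439, 0.80 and 0.551).

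Stat3, the transcription factor activated by the leptin receptor, was bright, and its groups overlapped. On 1426587_a_at STZ arrays ran from 2253.0 through a median of 2592 to 3017.3. The ob/ob arrays were 1952.7, 2628.6, 2413.9, 2237.3 and 2259.6, and control arrays ran from 2140.7 through 2559 to 2788.7. The ob/ob arrays held the lowest signal, and 4 of 5 were below the control median, with STZ and control reaching higher. The difference was -0.14 ± 0.085 in ob/ob against control (limma, adjusted p = 0.563) and -0.18 ± 0.085 against STZ (limma, adjusted p = 0.9996; fold 0.88, 95% interval 0.78 to 0.996), with STZ at 0.047 ± 0.081 against control. The second tested probe set, 1460700_at, did not share this: it stood at -0.0061 ± 0.061 in ob/ob against control and 0.072 ± 0.061 against STZ. The dim 1424272_at ranged from 238.8 to 873.8 over all arrays.

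Socs3, the feedback inhibitor that STAT3 induces and the gene whose promoter stretch holds a STAT site, was dim and uneven. On 1416576_at STZ arrays ran from 194.6 through a median of 291.4 to 801, and ob/ob arrays were 293.0, 466.9, 399.4, 509.4 and 317.6. Control arrays ran from 265.8 through 326 to 615. The highest signals came from 1 STZ and 1 control array, and all 5 ob/ob arrays were above the STZ median. The difference was -0.12 ± 0.28 in STZ and 0.18 ± 0.29 in ob/ob against control, and 0.30 ± 0.29 in ob/ob against STZ (limma without the filter, adjusted p = 0.961, 0.921 and 0.9996). The 95% interval of the fold in ob/ob against control, 0.74 to 1.73, shows how little these arrays limit a change in Socs3. The 2 other probe sets, both of the cross-hybridizing kind, stood at -0.021 ± 0.26 and 0.069 ± 0.19 in ob/ob against control.

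Ptpn1 encodes PTP1B, the phosphatase that removes phosphate from the insulin receptor and from JAK2. On its brighter probe set, 1417068_a_at, STZ arrays ran from 1955.5 through a median of 2041 to 2525.6. The ob/ob arrays were 2084.7, 2348.8, 1907.6, 2185.3 and 2208.8, and control arrays ran from 2122.9 through 2199.65 to 2375.6. The groups overlapped, at -0.086 ± 0.064 in STZ and -0.060 ± 0.067 in ob/ob against control (limma, adjusted p = 0.77 and 0.775). On 1438670_at STZ arrays ran from 1276.2 through 1541 to 1902.9, ob/ob arrays were 1521.2, 1831.5, 1584.1, 1549.3 and 1625.1, and control arrays ran from 1123.6 through 1335 to 1793.2. All 5 ob/ob arrays were above the control median and inside the control range or just over it. The difference was 0.24 ± 0.11 in ob/ob (limma, adjusted p = 0.395; fold 1.18, 95% interval 1.01 to 1.39) and 0.19 ± 0.11 in STZ (limma, adjusted p = 0.679). The probe sets of Ptpn1 thus had opposite signs in both comparisons with control.

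**Figure D4:**
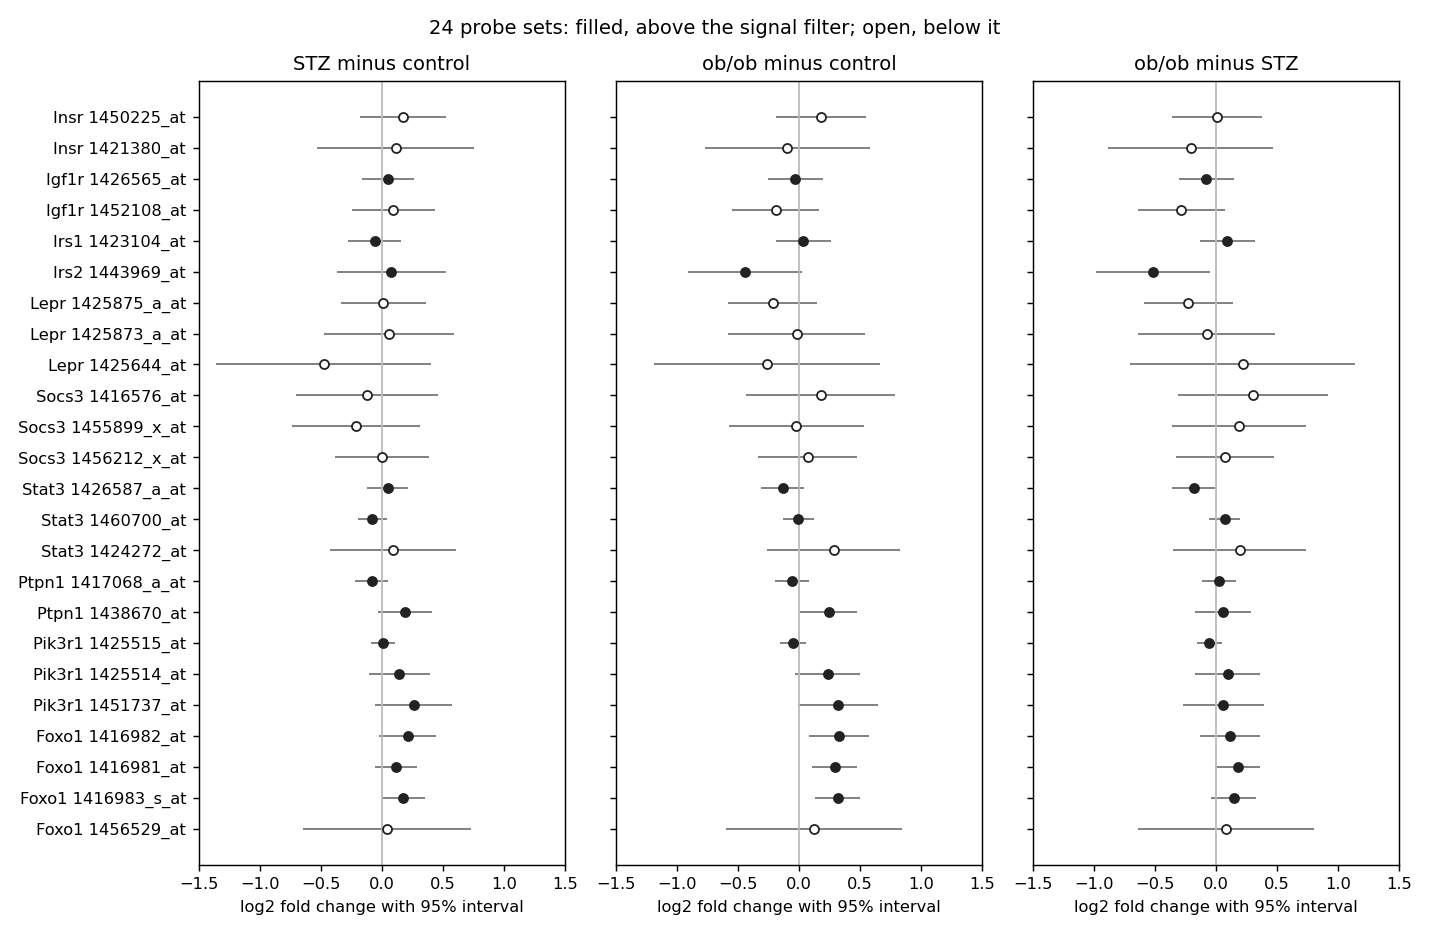
Log2 fold changes with 95% intervals of the 24 probe sets in the 3 comparisons, filled where the probe set was above the signal filter and open where it was below. The 3 filled Foxo1 points in ob/ob minus control lie between 0.29 and 0.32 with intervals above 0, as is that of Ptpn1 1438670_at. In ob/ob minus STZ the intervals of Irs2 and of Stat3 1426587_a_at lie below 0. All intervals are before any adjustment.

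Of 73 further genes listed for the pathway 60 had a probe set with a single symbol and 48 were tested on their brightest one. By limma 0 of the 48 passed on that probe set in each comparison. At an unadjusted p under 0.05 there were 8 in STZ against control (16.7%, against 8.24% of all probe sets), 2 with a positive and 6 with a negative value (3.87 and 4.38% of all). The count was also 8 in ob/ob against control (16.7%, against 11.9% of all), with 4 positive and 4 negative (5.75 and 6.12% of all). It was 5 in ob/ob against STZ (10.4%, against 3.93% of all), 2 positive and 3 negative (1.93 and 2.0% of all). Their medians were 0.036, -0.013 and 0.0009 in the 3 comparisons, close to those of all probe sets.

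Among 7 tested binding proteins and other receptors, 3 had a negative value at an unadjusted p under 0.05 in STZ (4.38% of all probe sets) and 2 in ob/ob (6.12% of all). In ob/ob 1 had a positive value (5.75% of all), Igfbp4, a carrier of IGF1 named after its values were seen, at 0.21 ± 0.082 (limma, adjusted p = 0.30). In ob/ob against STZ, at the same unadjusted threshold, 1 of the 7 had a positive value (1.93% of all) and 0 a negative one (2.0% of all). The highest log2 fold change of the 7 in that comparison was 0.48. Il6st, the gp130 chain of the interleukin-6 receptor family that also signals through STAT3, lay between 1741.8 and 1921.2 in STZ and between 1735.6 and 1871.9 in ob/ob, against 1922.9 to 2155.2 in control. Neither group overlapped with control, as was the case for 0.567% of all probe sets in STZ and 1.91% in ob/ob. Its difference was -0.16 ± 0.046 in STZ and -0.16 ± 0.048 in ob/ob (limma, adjusted p = 0.314 and 0.164). These values are from 1452843_at, and the other tested Il6st probe set, 1460295_s_at, overlapped with control at -0.0014 ± 0.081 in STZ and -0.037 ± 0.084 in ob/ob, as did the dim 1421239_at. Leprotl1, a relative of the protein that limits surface leptin receptor, stood at -0.14 ± 0.044 in STZ and -0.16 ± 0.046 in ob/ob (limma, adjusted p = 0.339 and 0.149). Its arrays lay between 4142.8 and 4549.7 in STZ and 3976.6 and 4572.0 in ob/ob, and control arrays between 4506.7 and 5096.1, so a few overlapped. The third in STZ, named after its values were seen, was Igfbp5, another such carrier, at -0.18 ± 0.069.

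Of the 12 tested adaptors Irs4, an IRS protein made in the hypothalamus, had the most negative value in ob/ob on a brightest probe set. Its signals there were 530.6, 434.9, 468.3, 455.3 and 589.8, against 570.6 to 785.1 in control, with STZ between 451.6 and 598.5. The difference was -0.38 ± 0.10 in ob/ob and -0.27 ± 0.099 in STZ against control (limma, adjusted p = 0.137 and 0.459). Shc1, which links receptors to RAS, stood at -0.23 ± 0.10 in ob/ob against STZ (limma, adjusted p = 0.9996), and its dim probe set 1422853_at at 0.14 ± 0.17. Ptprf, a receptor-type phosphatase that can act on the insulin receptor, stood at 0.33 ± 0.092 in STZ against control (limma, adjusted p = 0.264) and -0.26 ± 0.097 in ob/ob against STZ (limma, adjusted p = 0.9996). STZ arrays of Ptprf lay between 4233.1 and 6580.9, ob/ob arrays between 4204.5 and 5281.2, and control arrays between 3769.7 and 4632.1. Its 2 other tested probe sets stood at -0.14 and -0.012 in STZ. Pik3r2, the p85 beta subunit of PI3-kinase, stood at 0.22 ± 0.097 in ob/ob against STZ (limma, adjusted p = 0.9996), with 1882.3 in the highest ob/ob array. Against control Pik3r2 stood at 0.22 ± 0.097 in ob/ob and 0.0050 ± 0.092 in STZ (limma, adjusted p = 0.363 and 0.994). Of the 14 tested kinases of the PI3K, AKT and mTOR branch, 1 had an unadjusted p under 0.05 in STZ (7.14%, against 8.24% of all probe sets), 2 in ob/ob against control (14.3%, against 11.9%) and 1 in ob/ob against STZ (7.14%, against 3.93%).

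**Figure D5:**
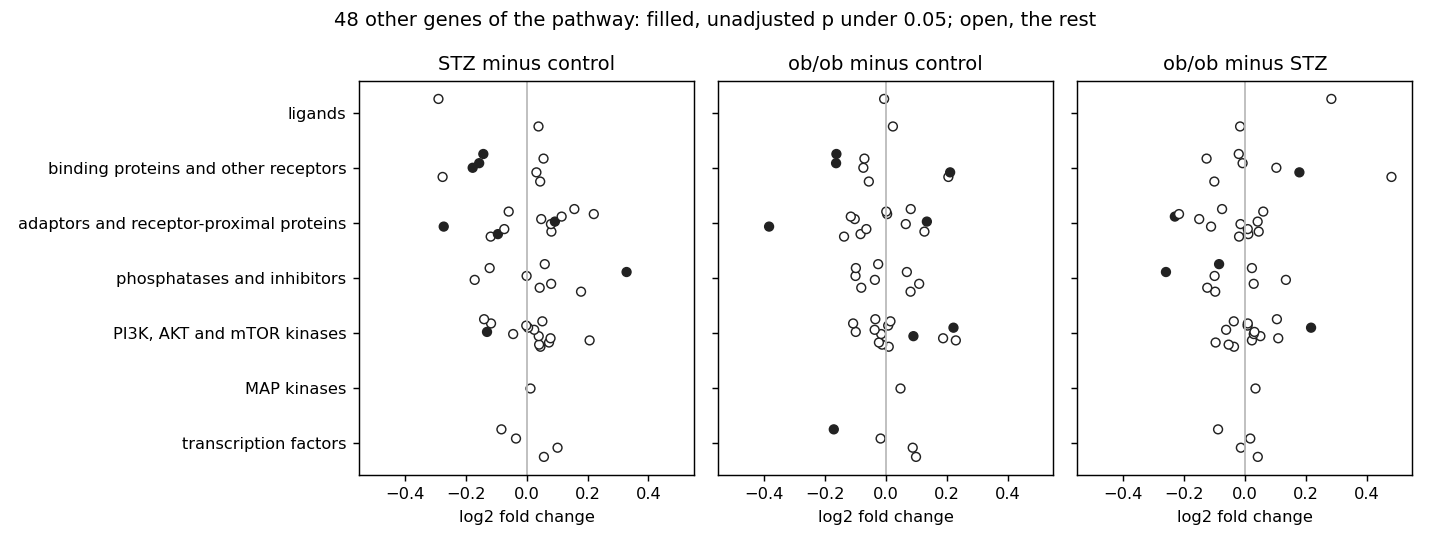
Log2 fold changes of the 48 further pathway genes in the 3 comparisons, grouped by role, filled at an unadjusted p under 0.05 and open otherwise. The values lie between -0.38 and 0.48, and the filled points fall on both sides of 0.

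Grb10, an adaptor that binds the insulin receptor and dampens it, was the 1 listed gene to pass on any probe set, and it was named after its values were seen. On 1425457_a_at, which is not its brightest, it fell to 539.5, 634.0, 679.0, 538.9 and 613.7 in ob/ob arrays, against 815.1 to 917.6 in control, with STZ between 668.8 and 793.6. The difference in ob/ob was -0.52 ± 0.080 (limma, adjusted p = 0.0113). The list has 116 probe sets, some of them below the filter and not tested. Of all tested probe sets 0.125% passed in ob/ob against control. The brightest Grb10 probe set, 1425458_a_at, stood at -0.082 in ob/ob and 1430164_a_at at -0.042. On 1425457_a_at Grb10 did not pass with the neighbouring-region level as a covariate (-0.46, adjusted p = 0.311) or without the 2 ob/ob arrays of highest Ttr (-0.53, adjusted p = 0.0816).

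Of the feeding peptides downstream of both hormones, Pomc, the precursor of the satiety peptide alpha-MSH, fell in both models. On 1433800_a_at it stood at -0.65 ± 0.12 in STZ and -0.75 ± 0.12 in ob/ob against control (limma, adjusted p = 0.0384 and 0.0121). The dimmer 1455858_x_at, of the cross-hybridizing kind, stood at -1.32 ± 0.25 in STZ and -1.92 ± 0.26 in ob/ob (limma without the filter, adjusted p = 0.0781 and 0.00644). Its ob/ob call was kept in 23 of 24 alternatives, without the 2 arrays of highest Ttr among them (-2.04, adjusted p = 0.0338), and lost with the region covariate (-1.43, adjusted p = 0.395). On 1433800_a_at Pomc did not pass in ob/ob in a fit of only 2 groups, without the 2 arrays of highest Ttr (-0.67, adjusted p = 0.103) or with the region covariate (-0.65, adjusted p = 0.391), nor in STZ with that covariate (-0.60, adjusted p = 0.197). Its STZ call was also lost with no filter, with eBayes without a trend, without the 2 ob/ob arrays of highest Ttr, or without any 1 of control 1 to 5, STZ 2, 4, 5 or 6 or ob/ob 1 or 3 (adjusted p at most 0.113). Npy, which stimulates feeding, stood at 0.34 ± 0.077 in STZ and 0.27 ± 0.081 in ob/ob (limma, adjusted p = 0.146 and 0.176), and Agrp was not analysed here. Lep, the gene of leptin itself, was dim, at 42.7 in STZ, 41.5 in ob/ob and 31.4 in control, and since the ob/ob mutation need not remove the RNA this probe set checks nothing about the labels.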

How the data were processed

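The deposited values were MAS5 signals in the unit intensity, on a linear scale, per the submitters' processing notes, with version, scaling target and genome build not given in the sources used here. Every array had a 2% trimmed mean of 1500.4, so the authors had scaled the arrays alike. The platform annotation named the probe sets: 20380 of 22626 had 1 gene symbol, 691 several and 1555 none, and 64 control sets were left out. Here the log2 of each signal was used, and a filter at the 40th percentile of mean log2 signal kept 13576 probe sets. The 3 groups entered a single linear model in limma 3.58.1 under R 4.3.3, with a trended eBayes prior and a Benjamini-Hochberg threshold of 0.05. Values of dimmer probe sets come from the same fit on 22626. The ob/ob against STZ contrast tests whether the models differ. Nothing in the labels beyond 1 hypothalamus per array describes the replicates, so p-values cover the spread among these samples alone, and the number of arrays limits their precision.

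The genes, the pathway list and the marker lists were chosen with earlier results of these data known. Named by rule were all probe sets of the 10 genes, the 3 pathway genes of smallest p in each comparison, Lep, Pomc, Agrp and Npy, and the 3 genes most like Foxo1. The brightest probe set stood for a gene. Marker lists were compared by exact two-sided permutation tests. The procedure was tested on simulated data with 200 changed probe sets of 13576. It recovered 76 to 80% of those changed 1.41-fold and 94 to 98% of those changed 2-fold. Of its calls 8.2% were false in STZ against control, 6.8% in ob/ob against control and 3.4% in ob/ob against STZ. The simulated noise was independent between probe sets, without variation shared by genes. The deposited data gave only 7, 17 and 5 calls, and with fewer changes the adjustment is stricter. The recovered shares therefore do not give the power of the tests on the 10 genes. The alternatives were other filters, quantile normalization, log2(signal + 50), eBayes without a trend, only 2 groups, a neighbouring-region covariate, the replicate block, the mean of a gene's probe sets and leaving out each array. Leaving out the 2 ob/ob arrays of highest Ttr was chosen after seeing the data. Arrays with the same replicate number did not deviate together (correlations from -0.165 to 0.109 over 16 pairs, 1 above 0.1), so the numbers do not pair them.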

Additional observations from a re-analysis of the deposited data

Results flagged for a closer look

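Of 102 groups of arrays looked at, 8 held 1 array with a gap to the others that was large for the group's range (Dixon's 95% value), where chance flags about 1 in 20. Lepr 1425644_at was 52.0 in control 3 and 7.4 to 10.0 in the other controls. Socs3 1416576_at was 801.0 in STZ 4, against 194.6 to 320.7 in the other STZ arrays, and 615.0 in control 2, against 265.8 to 350.1 in the other controls. Ptpn1 1417068_a_at was 2525.6 in STZ 2 and 1955.5 to 2138.5 in the other STZ arrays. Foxo1 1416981_at was 1001.1 in control 5 and 1279.5 to 1469.9 in the other controls, and without that array its ob/ob difference was 0.22 (limma, adjusted p = 0.295). Ptprf 1420843_at was 3769.7 in control 2 and 4450.1 to 4632.1 in the other controls. Irs4 1422248_at was 785.1 in control 2, against 570.6 to 631.7 in the other controls. Lep 1422582_at was 129.8 in ob/ob 5 and 26.2 to 40.7 in the other ob/ob arrays.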

How the results depend on the processing

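The tested probe sets of the 10 genes, and the brightest probe set of each of the 48 other pathway genes, had 0 calls by limma in each comparison under all 27 alternatives (Grb10 passed on a dimmer one), and the lowest adjusted p of a tested member was 0.0891 (Foxo1 1416982_at, ob/ob against control without STZ 3). Of the 39 values of tested members 23 kept their sign throughout. The mean of a gene's probe sets moved Pik3r1 to 0.14 in STZ and 0.17 in ob/ob, Ptpn1 to 0.050 and 0.091, and Stat3 to 0.047 in ob/ob against control. The 7 calls over all probe sets in STZ against control became 2 with the neighbouring-region covariate. They ran from 0 to 18 when 1 array was left out: 0 without STZ 4 or STZ 5 (limma; 934 and 875 at an unadjusted p under 0.05), 1 without control 5, 4 without control 1 or 4, 12 without STZ 3 and 18 without STZ 1. The 17 calls in ob/ob against control became 29 with quantile normalization and 6 in a fit of only 2 groups. With that covariate, and without the 2 ob/ob arrays of highest Ttr, there were 0 (limma; 1002 and 1508 at an unadjusted p under 0.05). They ran from 8 to 43: 8 without control 1 or 3, 9 without control 5, control 6, ob/ob 2 or ob/ob 5, 11 without ob/ob 4, 38 without control 2 and 43 without control 4. The 5 calls in ob/ob against STZ became 3 with a filter at the 60th percentile. They became 1 with no filter, only 2 groups, the covariate, the replicate block, the mean per gene or without the 2 Ttr arrays. Leaving out 1 array gave 1 to 9. The cause was not tested. With the replicate block there were 5, 19 and 1 calls in the 3 comparisons, 0 of them members, and 2 arrays correlated best with their own number. Quantile normalization kept the share of higher calls within 10 percentage points in each comparison. The dim signals of Insr, Lepr and Socs3 limit what can be seen of them.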
